A study of Mus musculus with 12 samples.

Results

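MAPK output and feedback genes are genes that ERK signaling switches on, and 10 of them were examined here in EGFR+ cells sorted from mouse glioblastomas (GBMs): Spry1, Spry2, Spry4, Spred1, Spred2, Dusp4, Dusp6, Etv1, Etv4 and Etv5. They were taken as a list of gene symbols, chosen with earlier results of these data known. All 10 of the 10 symbols were found among the 18180 genes of the deposited table. Bulk RNAseq was available for 12 libraries, made from 4 sorted populations in each of the 3 tumors called T3, T4 and T5. One stain parted the EGFR+ cells of a tumor into PDGFRA+ and PDGFRA- cells by the receptor PDGFRA (PDGFR in the sample labels), and the other into GAL1+ and GAL1- cells by the lectin Galectin-1, so that each population had 3 libraries.

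All libraries came from one tumor model with no treatment arm. The tumors arose in mice of mixed background (C57Bl/6J, 129S4, FVBN/J, Balb/cJ) in which Cre recombinase turned on human EGFR, with Cdkn2a lost, together with a luciferase reporter. A lentivirus injected into the brain carried the Cre, and tumors were taken at end stage. The study describes the sorted cells as CD45-, whereas its methods for this sort list EGFR antibody combined with one for PDGFR or for Galectin-1. PDGFRA+ and PDGFRA- cells on one side, and GAL1+ and GAL1- cells on the other, split the same EGFR+ pool, so PDGFRA and GAL1 populations of a tumor can hold the same kinds of cells.

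In the EGFR pathway the receptor activates RAS, RAF, MEK and ERK in turn, and ERK enters the nucleus and changes transcription. Among its targets are the genes of its own brakes. Sprouty and Spred proteins act near the receptor and RAS, DUSP phosphatases remove the activating phosphates from ERK itself, and the ETS-family factors Etv1, Etv4 and Etv5 carry the signal on to further genes. Their transcripts are widely read as a gauge of pathway output in tumors driven by receptors such as EGFR. Here they are transcript levels, and no phosphorylated ERK was measured.

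The values are log2 CPM, the log2 of read counts scaled to the size of each library, and differences between populations are log2 fold changes from a linear model with the tumor as a block, fitted over all genes. A gene was called changed at an adjusted p under 0.05 (limma's moderated test, Benjamini-Hochberg over 18180 genes). The libraries held 9851175 to 24117541 reads as recovered from the deposited values, and the 10 genes had 144 to 8017 reads in every library, far above the floor of 3 reads. In bulk RNA from sorted cells, fewer cells of a type and less RNA per cell cannot be told apart.

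Promoter sequence was held for 7 of the 10 genes in 9 windows that ran from 250 bases before to 50 bases from a transcription start on. The motif AGGAAGT, with the GGAA core that ETS factors such as the ETV proteins bind, was found on either strand in 3 of these 9 windows and in 9.35% of 32851 windows of all genes. A second ETS motif, CCGGAAG, was in 0 of the 9 windows (8.86% of all), the AP-1 motif TGANTCA in 0 (7.81%) and the CRE motif TGACGTCA in 0 (1.79%). The stretches below are the 3 that hold AGGAAGT, shown because they place the ETS core within 33 bases of a start; each runs from 70 bases before to 20 bases from the start on, 5′ to 3′ on the gene's strand, with the motif in capitals (RefSeq, GRCm38.p6; Spred2 chr11:19924372-19924461 plus strand, Etv1 chr12:38780012-38780101 plus strand, Etv5 chr16:22438349-22438438 minus strand). In Spred2 the motif reads on the opposite strand, at positions -33 to -27 from the start. In Etv1 it spans -4 to 3, and in Etv5 it lies at 2 to 8.
Spred2: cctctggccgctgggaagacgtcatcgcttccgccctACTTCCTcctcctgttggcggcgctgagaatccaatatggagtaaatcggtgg
Etv1: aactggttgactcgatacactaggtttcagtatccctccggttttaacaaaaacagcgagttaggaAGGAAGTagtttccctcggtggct
Etv5: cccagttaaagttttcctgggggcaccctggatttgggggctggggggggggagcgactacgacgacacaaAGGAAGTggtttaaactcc
A match describes letters in a window and no binding was measured.

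The levels of 8 of the 10 genes fell in 1 order of population means, GAL1- above PDGFRA+ above PDGFRA- above GAL1+, an order that 26.2% of all genes shared. Dusp4 had PDGFRA- above PDGFRA+ by 0.01, with GAL1- highest and GAL1+ lowest. Dusp6 had another order, PDGFRA- above GAL1+ above GAL1- above PDGFRA+, which 2.43% of all genes had. Neighbours in these orders mostly did not differ beyond their spread. The step from PDGFRA- down to GAL1+ was the only step between neighbours that passed the test, for Spry1, Spry2, Spry4 and Etv4.

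**Figure D1:**
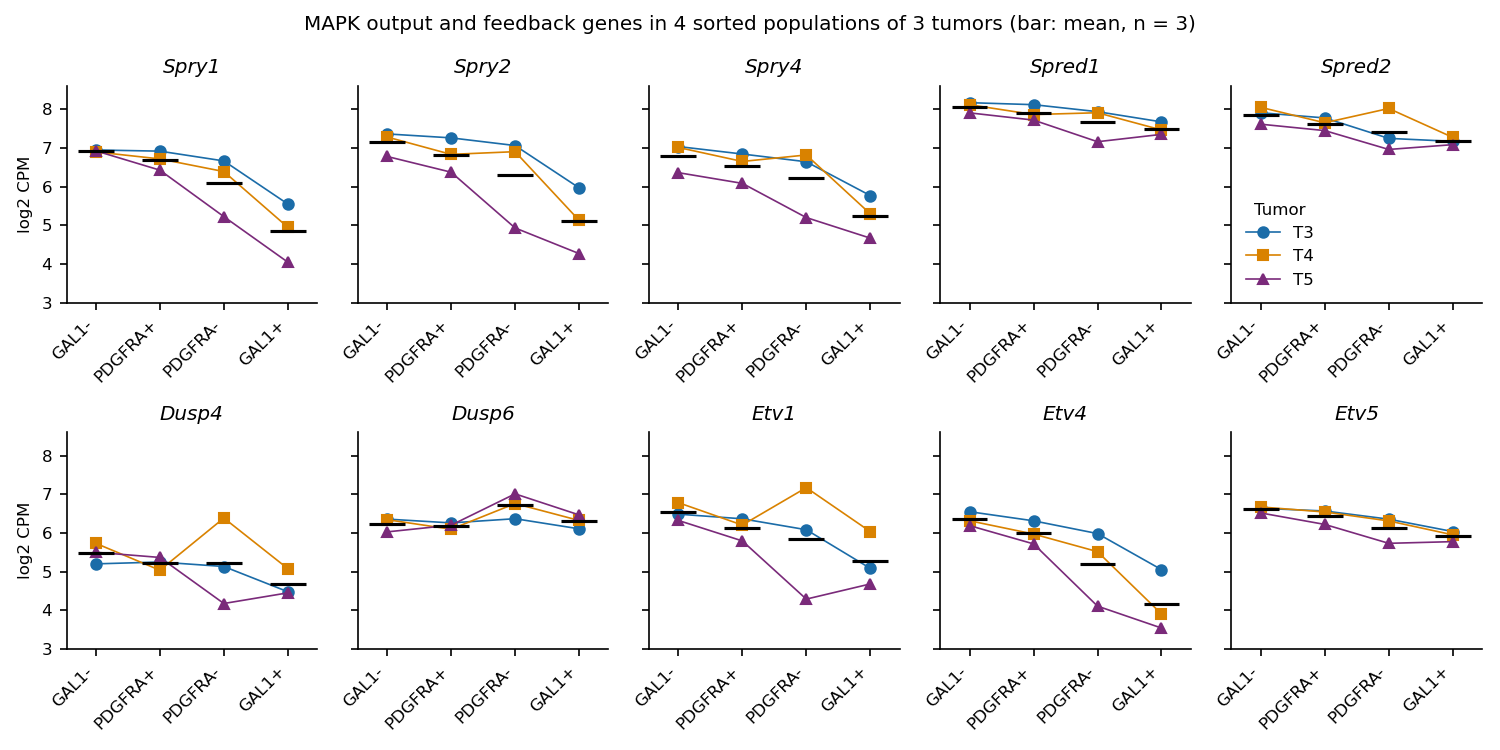
Level of each gene (log2 CPM) in the 12 libraries, with the 4 populations on the x axis, tumors T3, T4 and T5 as circles, squares and triangles joined by lines, and the mean of 3 libraries as a black bar. Spry1, Spry2, Spry4 and Etv4 run from GAL1- at 6.19 or above to GAL1+ at 5.97 or below in every tumor, while Dusp6 stays between 6.03 and 7.01.

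The sort on Galectin-1 gave the most calls. GAL1+ cells had lower levels than GAL1- cells for 8 of the 10 genes and higher levels for 0, where 29.3% of all genes were called lower and 28.9% higher. The median log2 fold change of the 10 genes was -1.04, against -0.03 for all genes. Etv4, Spry1 and Spry2 fell by 4.55-fold, 4.21-fold and 4.06-fold, and Dusp4 and Dusp6 did not pass. The GAL1+ libraries all lay below the GAL1- libraries for 9 genes, Dusp6 being the exception, which was true of 30.5% of all genes. Within T3, T4 and T5 the median difference of the 10 genes was -1.0, -0.76 and -1.35.

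The sort on PDGFRA called 0 of the 10 genes, and 0% of all genes, between PDGFRA+ and PDGFRA- cells. At an unadjusted p under 0.05 by the same limma test there were 4 of the 10 (Spry1, Dusp6, Etv4 and Etv5) and 2137 of 18180 genes. The smallest adjusted p was 0.306 among the 10, for Dusp6, and 0.181 among all genes. The median difference reached 0.21 in T3 and 1.04 in T5 against -0.12 in T4, so the tumors parted over the direction. Dusp6 was the only one of the 10 whose populations did not overlap, lower in PDGFRA+, as in 3.43% of all genes.

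Between populations of the 2 stains, PDGFRA+ cells had higher levels than GAL1+ cells for 6 genes (Spry1, Spry2, Spry4, Spred1, Etv4 and Etv5), where 20.9% of all genes were called higher. Without the tumor block 2 of the 6 remained called, Spry1 and Etv4, and 12.2% of all genes were called higher. All PDGFRA+ libraries lay above all GAL1+ libraries for 7 genes, the 6 and Spred2, as for 23.5% of all genes. Among all genes called here, 55.1% were higher in PDGFRA+, and 40.8% were after each library was centred on its median, when 5 of the 10 genes and 16.7% of all genes were called higher.

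PDGFRA+ and GAL1- cells differed in 0 of the 10 genes by the test, and no gene of the 10 passed an unadjusted p of 0.05. All 10 differences were negative, from -0.41 for Etv1 to -0.06 for Dusp6. Of all genes 8.27% were called, but 1502 of these 1504 were higher in PDGFRA+ and 2 (0.011% of all genes) were lower, a share that 0 of 10 lies close to. A fit on these 2 populations alone called 3 of the 10 lower in PDGFRA+, Spry4, Etv1 and Etv4, and 5.51% of all genes lower, with more genes called in all (3386) than in any other setting. The 95% intervals of the full fit reach, for example, from -0.83 to 0.36 for Spry1 and from -0.99 to 0.29 for Etv4.

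The mean of PDGFRA- cells lay between those of the GAL1 populations for 9 of the 10 genes, whereas for Dusp6 it lay above both. PDGFRA- cells had lower levels than GAL1- cells for 3 genes, Spry1, Etv4 and Etv5 (6.88% of all genes called lower), and higher levels than GAL1+ cells for 4, Spry1, Spry2, Spry4 and Etv4 (13.2% of all genes called higher). Both counts changed with the libraries and the fit, and so did the shares of all genes called in the same direction. Without the PDGFRA- library of T5 the 3 became 0 (1.21% of all genes) and the 4 became 8 (18.7%). Without T3 they became 1 (2.68%) and 0 (4.15%), without T4 3 (4.54%) and 0 (0%), and without T5 0 (0.105%) and 4 (11.9%). Without the tumor block both were 0 (0.424% and 3.4%). Scaling mattered too: quantile normalization called 7 genes lower in PDGFRA- than in GAL1- (13.8% of all genes) and median centring 6 (12.7%), and the share of higher calls among all genes went from 70.2% to 47.2% and 51.4%, while in PDGFRA- against GAL1+ centring took it from 65.6% to 46.9%.

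**Figure D2:**
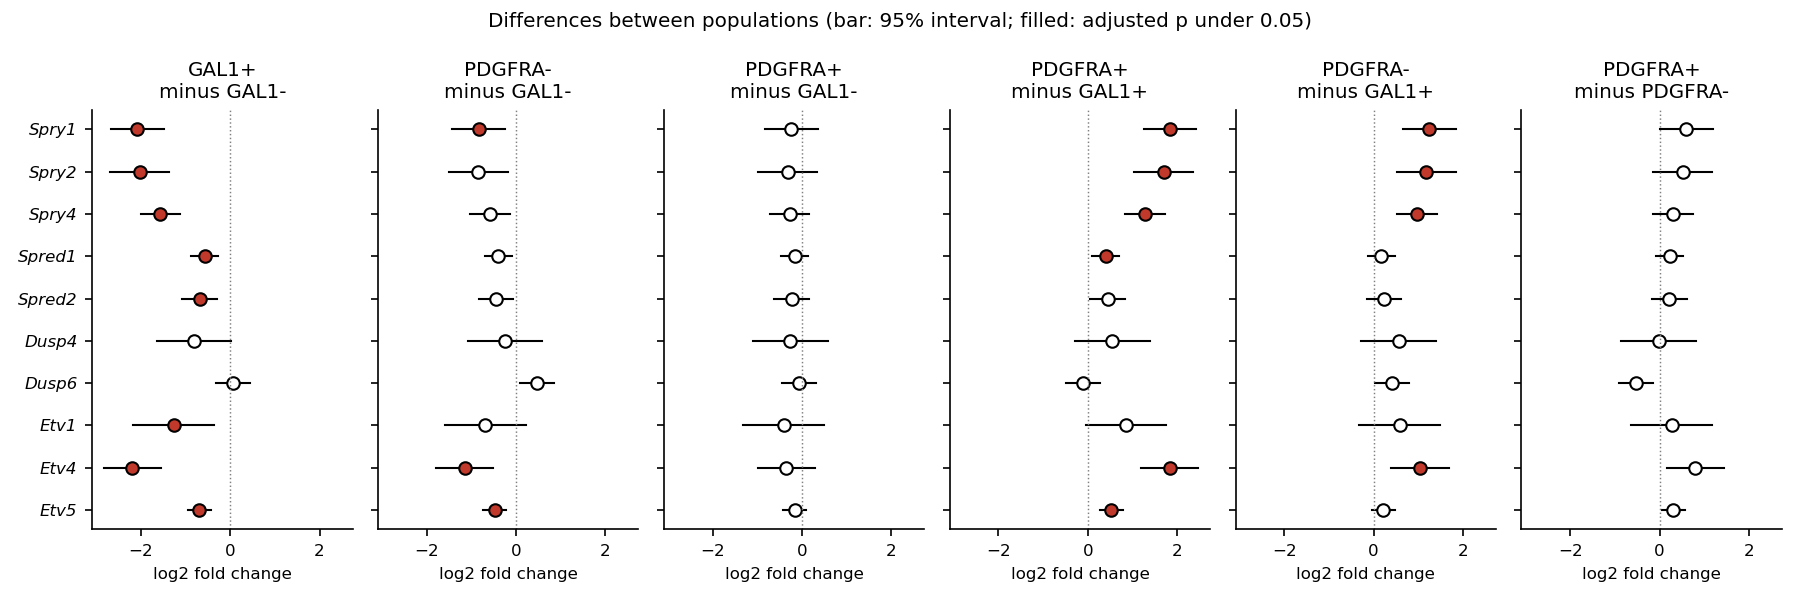
Log2 fold change (x axis) of each gene in the 6 comparisons of populations, with 95% intervals as bars and filled points where the adjusted p was under 0.05. Filled points number 8 in GAL1+ minus GAL1-, 3 in PDGFRA- minus GAL1-, 6 in PDGFRA+ minus GAL1+, 4 in PDGFRA- minus GAL1+ and 0 in the other two.

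Sprouty proteins are induced by receptor tyrosine kinases and hold back RAS and ERK activation. In T3, T4 and T5, the log2 CPM of Spry1 was 6.95, 6.90 and 6.92 in GAL1- cells, 6.91, 6.71 and 6.42 in PDGFRA+ cells, 6.66, 6.39 and 5.22 in PDGFRA- cells and 5.55, 4.95 and 4.04 in GAL1+ cells. Spry2 stood at 7.36, 7.28 and 6.78 in GAL1-, 7.26, 6.83 and 6.37 in PDGFRA+, 7.06, 6.90 and 4.93 in PDGFRA- and 5.97, 5.13 and 4.27 in GAL1+. Spry4 measured 7.03, 7.01 and 6.36 in GAL1-, 6.84, 6.65 and 6.08 in PDGFRA+, 6.64, 6.82 and 5.20 in PDGFRA- and 5.77, 5.29 and 4.67 in GAL1+. For all 3 genes the GAL1+ libraries sat below every GAL1- and PDGFRA+ library, T5 was the lowest library of each population apart from Spry1 in GAL1- cells, and the PDGFRA- library of T5 dropped into the GAL1+ range. Spry1 in GAL1- cells was the tightest of these groups, with an SD of 0.03 (n = 3), whereas Spry2 in PDGFRA- cells had an SD of 1.19 (n = 3).

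From GAL1- to GAL1+ cells Spry1 fell by 2.08 (SE 0.26, adjusted p = 0.00016), Spry2 fell by 2.02 (SE 0.29, adjusted p = 0.000336) and Spry4 fell by 1.56 (SE 0.20, adjusted p = 0.000159). Each was lower in 3 of 3 tumors and passed under all 14 alternative settings. The differences within T3, T4 and T5 were -1.40, -1.95 and -2.88 for Spry1, so T5 moved most. PDGFRA+ cells exceeded GAL1+ cells by 1.84 for Spry1 (SE 0.26, adjusted p = 0.00173), 1.70 for Spry2 (SE 0.29, adjusted p = 0.00300) and 1.28 for Spry4 (SE 0.20, adjusted p = 0.00207). Without the tumor block the adjusted p was 0.0551 for Spry2 and 0.0585 for Spry4, with a range over the 14 settings of 0.000711 to 0.0551 and 0.000711 to 0.0585.

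PDGFRA- cells exceeded GAL1+ cells by 1.24 for Spry1 (adjusted p = 0.0156), 1.18 for Spry2 (adjusted p = 0.0256) and 0.98 for Spry4 (adjusted p = 0.0136), in 3 of 3 tumors each. Without T3 or without T4 none of the 3 passed, and adjusted p over the settings ran from 0.00561 to 0.150, 0.00476 to 0.226 and 0.00476 to 0.191. Against GAL1- cells, PDGFRA- cells were lower by the test for Spry1, at -0.83 (SE 0.26, adjusted p = 0.0484), but at -0.57 (adjusted p = 0.209) without the PDGFRA- library of T5, with adjusted p from 0.0168 to 0.241 over the settings. Spry2 at -0.84 (adjusted p = 0.0652) and Spry4 at -0.58 (adjusted p = 0.0600) did not pass. PDGFRA+ minus PDGFRA- gave 0.59, 0.52 and 0.31 for Spry1, Spry2 and Spry4, none past the threshold. In T5 alone these differences were 1.20, 1.44 and 0.88, and in T4 they were 0.33, -0.07 and -0.17.

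Spred1 and Spred2 are membrane-bound relatives of the Sproutys, and they bring the RAS inhibitor neurofibromin to the membrane. Spred1 had 8.17, 8.12 and 7.91 log2 CPM in GAL1- cells of T3, T4 and T5, 8.12, 7.86 and 7.72 in PDGFRA+ cells, 7.94, 7.91 and 7.16 in PDGFRA- cells and 7.67, 7.46 and 7.35 in GAL1+ cells. Spred2 had 7.91, 8.05 and 7.61 in GAL1-, 7.77, 7.65 and 7.45 in PDGFRA+, 7.25, 8.02 and 6.96 in PDGFRA- and 7.17, 7.27 and 7.08 in GAL1+. Spred1 ran from 7.16 to 8.17 over the 12 libraries, and its GAL1+ libraries were narrowly below the others except the PDGFRA- library of T5. Spred2 in PDGFRA- cells of T4 stood with the GAL1- libraries.

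GAL1+ cells were lower than GAL1- cells by the test for Spred1, at -0.57 (SE 0.13, adjusted p = 0.00517), and for Spred2, at -0.68 (SE 0.17, adjusted p = 0.00760), each in 3 of 3 tumors. These are 1.48-fold and 1.60-fold differences, where the Sproutys had 2.95-fold to 4.21-fold ones. Without T3, Spred2 stood at -0.65 with an adjusted p of 0.0701, in a range over the settings of 0.0014 to 0.0701. PDGFRA+ cells exceeded GAL1+ cells by 0.40 for Spred1 (SE 0.13, adjusted p = 0.0396), a call lost on leaving out T3, T4 or T5 (adjusted p = 0.219, 0.122 and 0.0522) and under 6 of 14 settings in all, over which the adjusted p ran from 0.00693 to 0.219. Spred2 had 0.45 there (SE 0.17, adjusted p = 0.0666). Against GAL1- cells, PDGFRA- cells had -0.40 for Spred1 (adjusted p = 0.0599) and -0.45 for Spred2 (adjusted p = 0.0885).

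DUSP4 and DUSP6 are MAP kinase phosphatases, the first nuclear and the second cytoplasmic and selective for ERK. The log2 CPM of Dusp4 in T3, T4 and T5 was 5.20, 5.73 and 5.50 in GAL1- cells, 5.25, 5.04 and 5.37 in PDGFRA+ cells, 5.13, 6.39 and 4.18 in PDGFRA- cells and 4.48, 5.08 and 4.45 in GAL1+ cells. Dusp6 read 6.36, 6.34 and 6.03 in GAL1-, 6.26, 6.10 and 6.20 in PDGFRA+, 6.37, 6.76 and 7.01 in PDGFRA- and 6.11, 6.33 and 6.47 in GAL1+. PDGFRA- cells held both the highest and the lowest Dusp4 library, and an SD of 1.11 (n = 3). Dusp6 kept between 6.03 and 7.01 in all 12 libraries, with its highest library the PDGFRA- cells of T5, where the Sproutys and Etv4 were at their lowest for that population.

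The GAL1+ to GAL1- difference of Dusp4 was -0.81 (SE 0.37, adjusted p = 0.0893), with 3 of 3 tumors lower and no overlap. It passed in 3 of 14 settings: in a fit on the GAL1 populations alone (adjusted p = 0.0065), without T4 (0.0421) and without the PDGFRA- library of T5 (0.0175), with adjusted p from 0.0065 to 0.261 in all. Dusp6 had a difference of 0.06 (95% interval -0.33 to 0.44, adjusted p = 0.794). Its tumors went apart, with -0.25 in T3, -0.02 in T4 and 0.44 in T5, and the sign turned under quantile normalization (-0.087) and without T5 (-0.14). From PDGFRA- to PDGFRA+ cells Dusp6 had -0.53 (95% interval -0.91 to -0.14, unadjusted p = 0.0121, adjusted p = 0.306), with all 3 tumors on the negative side (-0.11, -0.66 and -0.81). PDGFRA- cells had 0.47 more than GAL1- cells (adjusted p = 0.0736) without overlap, and Dusp6 was the only one of the 10 on that side, where 17.7% of all genes had PDGFRA- libraries all above GAL1- libraries. Dusp4 differed by -0.01 between PDGFRA+ and PDGFRA- cells (95% interval -0.85 to 0.82), made of 0.12 in T3, -1.35 in T4 and 1.19 in T5, and without T4 the value was 0.65.

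Etv1, Etv4 and Etv5 form the PEA3 group of ETS transcription factors and stand on the output side of the pathway. Etv4 covered the widest fold range between populations, with 6.55, 6.32 and 6.19 log2 CPM in GAL1- cells of T3, T4 and T5, 6.32, 5.97 and 5.72 in PDGFRA+ cells, 5.99, 5.52 and 4.11 in PDGFRA- cells and 5.05, 3.91 and 3.54 in GAL1+ cells. Etv1 was at 6.49, 6.79 and 6.33 in GAL1-, 6.37, 6.21 and 5.80 in PDGFRA+, 6.09, 7.17 and 4.29 in PDGFRA- and 5.09, 6.04 and 4.68 in GAL1+. Etv5 was at 6.64, 6.67 and 6.52 in GAL1-, 6.57, 6.54 and 6.22 in PDGFRA+, 6.36, 6.31 and 5.73 in PDGFRA- and 6.04, 5.95 and 5.78 in GAL1+. In each tumor Etv4 stepped down from GAL1- through PDGFRA+ and PDGFRA- to GAL1+. Etv1 in PDGFRA- cells had both extremes of its 12 libraries, T4 at the top and T5 at the bottom, as Dusp4 did.

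Etv4 fell by 2.19 from GAL1- to GAL1+ cells (SE 0.28, adjusted p = 0.000182), with tumor differences of -1.50, -2.41 and -2.65. Etv5 fell by 0.69 (SE 0.12, adjusted p = 0.000783), with a narrow spread between tumors of -0.60 to -0.74. Both passed under all 14 settings. Etv1 fell by 1.26 (SE 0.40, adjusted p = 0.0222), but not past the threshold without T3 (-1.20, adjusted p = 0.150) or without the tumor block (adjusted p = 0.0996), in a range of 0.00161 to 0.150. The 3 factors, close in sequence family and in function, therefore differed between these populations by 4.55-fold, 1.61-fold and 2.40-fold for Etv4, Etv5 and Etv1; the differences among the 3 were not tested.

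PDGFRA+ cells exceeded GAL1+ cells by 1.84 for Etv4 (SE 0.28, adjusted p = 0.00208) and by 0.52 for Etv5 (SE 0.12, adjusted p = 0.00825), and Etv1 had 0.85 (SE 0.40, adjusted p = 0.122). The Etv5 call was lost without T3 (adjusted p = 0.0900), without T4 (0.0731) and without the block (0.0666), with a lowest value of 0.00231 over the settings. PDGFRA- cells were lower than GAL1- cells by the test for Etv4, at -1.15 (SE 0.28, adjusted p = 0.0201), and for Etv5, at -0.48 (SE 0.12, adjusted p = 0.0185). Without the PDGFRA- library of T5 these were -0.78 (adjusted p = 0.0684) and -0.35 (adjusted p = 0.0643), with adjusted p from 0.00725 to 0.174 and from 0.00881 to 0.187 over the settings. Against GAL1+ cells, PDGFRA- cells had 1.04 more Etv4 (adjusted p = 0.0341, and 0.119 without T3 and 0.290 without T4, with a lowest value of 0.00508). Between PDGFRA+ and PDGFRA- cells Etv4 had 0.80 (95% interval 0.16 to 1.44, adjusted p = 0.344) and Etv5 0.31 (0.05 to 0.57, adjusted p = 0.362), in 3 of 3 tumors each, and Etv1 0.27 (-0.63 to 1.18), which became -0.34 without T5.

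**Figure D3:**
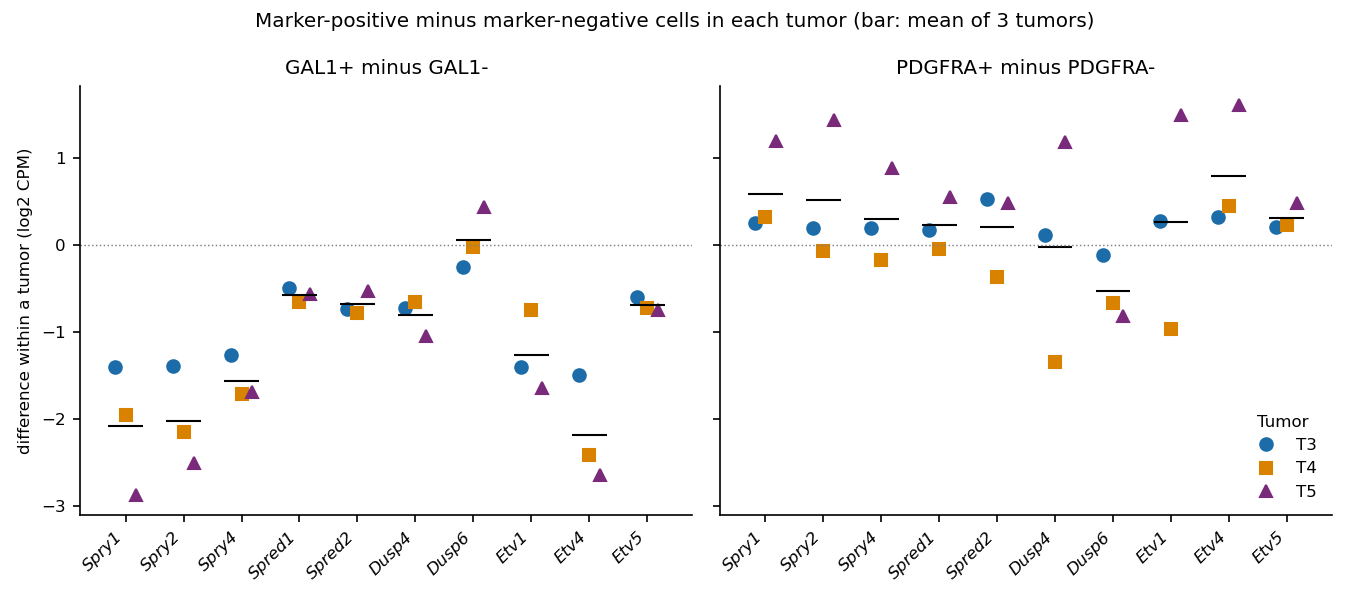
Difference in log2 CPM (y axis) between marker-positive and marker-negative cells within each tumor for the 10 genes (x axis), with Galectin-1 on the left and PDGFRA on the right, and black bars at the mean of 3 tumors. On the left all tumors are below 0 apart from Dusp6 in T5 (0.44), and on the right T5 is highest for 8 genes while T4 is below 0 for 7.

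The effects of the sorts were also set against each other, with GAL1+ beside PDGFRA+ and GAL1- beside PDGFRA-. The study reports Pdgfra and Lgals1 as top genes of different tumor cell clusters, so this pairing of the labels is a choice. The change from negative to positive cells was more negative with Galectin-1 than with PDGFRA for 8 of the 10 genes by the test of that difference, where 24.9% of all genes were called on that side, and Dusp4 and Dusp6 did not pass. Etv4 had the largest of these, at -2.98 (SE 0.40, adjusted p = 0.000431). Without the tumor block 5 of the 8 were called, and 17.7% of all genes. All 8 had lower means in GAL1+ than in GAL1- cells and higher means in PDGFRA+ than in PDGFRA- cells. Both differences therefore add up in this test. With PDGFRA+ set beside GAL1- instead, the means of the 8 went the same way in both sorts, so the test does not show that the sorts disagreed.

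Levels can be set beside each other between genes only per length, here as the mean log2 CPM per kilobase of exon (GENCODE M21 gene models). In GAL1- cells Spry2 was highest on this scale at 6.08, before Spred2 (5.65), Spry1 (5.38) and Spred1 (5.30), and Etv1, with 13296 bases of exon, was lowest at 2.80. In GAL1+ cells Spred2 (4.97), Spred1 (4.73) and Dusp6 (4.65) came first, with Spry2 at 4.06, Spry1 at 3.31 and Etv4 at 2.53. The brakes with the highest level per length were thus Sprouty and Spred genes in GAL1- cells and Spred genes and Dusp6 in GAL1+ cells. Exons of Spry1 share 710 bases with Gm42922 on the opposite strand, and whether strand was used in counting is not given in the sources used here. Reads of that antisense gene could not be told from those of Spry1.

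The 10 genes fell into sets by how alike their patterns were, measured as the root mean square difference (RMS, log2 units) over 12 libraries after centring each gene on its mean in each tumor. Genes that vary little lie closer to each other on this measure. Spred1 and Etv5 were closest (0.08), then Spred1 and Spred2 (0.12), Spry2 and Etv4 (0.14) and Spry1 and Spry2 (0.14), and Dusp4 was closest to Etv1 (0.23). Dusp6 and Etv4 were farthest apart (1.02). Among 13218 other genes searched, the nearest to Spry1 were Ndrg2 (0.07), Slc25a23 (0.08) and Pcdhga2 (0.08), and to Spry2 Iqschfp (0.07), Tmod2 (0.08) and Slc25a23 (0.08). Spry4 was most like Prph (0.07), Dbn1 (0.07) and Zfp518b (0.08), and Etv4 most like Klf12 (0.08), Fgd1 (0.08) and Fads2 (0.08). Spred1 was nearest to Ckap5, Smarcc1 and Rab3ip (0.05 to 0.06), Spred2 to Dcaf1, Spindoc and Upf3b (0.09 each), and Etv5 to Laptm4b, Ipo11 and Kidins220 (0.06 each). Dusp4 (Fzd1, Cav1 and Chic1, 0.12 to 0.13), Dusp6 (Tcf7l2, Strn and Zfp467, 0.10 to 0.12) and Etv1 (Nfib, Inpp5f and Adgra3, 0.14 to 0.16) had no gene as close.

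Of 10 other Sprouty, Spred and MAP kinase phosphatase genes, the test called 4 lower and 4 higher in GAL1+ cells against GAL1- cells, with a median of -0.39. All genes, with 29.3% lower and 28.9% higher, were called in both directions as well. The lower ones were led by Spry3 (-2.09, SE 0.35, adjusted p = 0.000804) and Spred3 (-1.74, SE 0.21, adjusted p = 0.000139), the remaining Sprouty and Spred genes. The higher ones were led by Dusp1 (2.32, SE 0.27, adjusted p = 0.000102) and Dusp2 (2.11, SE 0.32, adjusted p = 0.00047), phosphatases known as immediate early genes that act on several MAP kinases. All 7 Sprouty and Spred genes were thus called lower in GAL1+ cells, a grouping made after the values were seen.

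Of 16 other genes known to follow ERK activity or to feed back on it, 5 were lower and 8 higher in GAL1+ cells, with a median of 0.60, beside the 29.3% and 28.9% of all genes. Epha4, an ephrin receptor (-1.87, SE 0.35, adjusted p = 0.00137), and Il17rd, the Sef inhibitor of growth factor signaling (-1.66, SE 0.24, adjusted p = 0.000323), led the lower ones. Rasa4, a calcium-responsive RAS inhibitor (4.46, SE 0.43, adjusted p = 5.07e-05), and Plaur, the urokinase receptor, which myeloid cells also express (3.31, SE 0.33, adjusted p = 5.63e-05), led the higher ones.

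A list of 36 genes covered the path from EGFR to ERK, regulators of it and the Rps6ka kinases downstream of ERK. Of these, 10 (27.8%) were lower and 11 (30.6%) higher in GAL1+ cells, and their median was -0.08. These shares were close to those of all genes (29.3% and 28.9%). Egfr itself fell by 2.10 (SE 0.32, adjusted p = 0.000461), from 10.65, 10.46 and 10.42 log2 CPM in GAL1- cells of T3, T4 and T5 to 9.02, 8.53 and 7.68 in GAL1+ cells. PDGFRA- cells had 10.18, 10.02 and 8.16 and PDGFRA+ cells 10.50, 10.11 and 9.93, so Egfr too was lowest in T5 in each population and low in the PDGFRA- library of T5. How reads of the human EGFR transgene were assigned to this mouse gene is not given in the sources used here. The receptor Erbb4 (-2.81, SE 0.32, adjusted p = 0.000101) and the neural adaptor Shc3 (-2.35, SE 0.33, adjusted p = 0.000268) fell most, and the kinase Rps6ka1 (3.80, SE 0.43, adjusted p = 9.39e-05) and the adaptor Grb2 (1.98, SE 0.19, adjusted p = 5.1e-05) rose most. Of 6 EGFR ligands measured, 1 was called, Tgfa, which fell by 1.88 (SE 0.26, adjusted p = 0.000246), from 8.01, 7.74 and 7.87 in GAL1- cells to 6.60, 6.23 and 5.15 in GAL1+ cells. The study's methods name a Cre lentivirus that also carries TGFa as well as one without it. Which was used for these tumors, and whether its reads entered the Tgfa values, is not given in the sources used here. Tgfa, Egfr and most of the 10 output genes were lower in the same GAL1+ libraries. The ligands called lower were 16.7% of the 6, against 29.3% of all genes, and the other 5 were not called. A link between these levels was not tested.

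**Figure D4:**
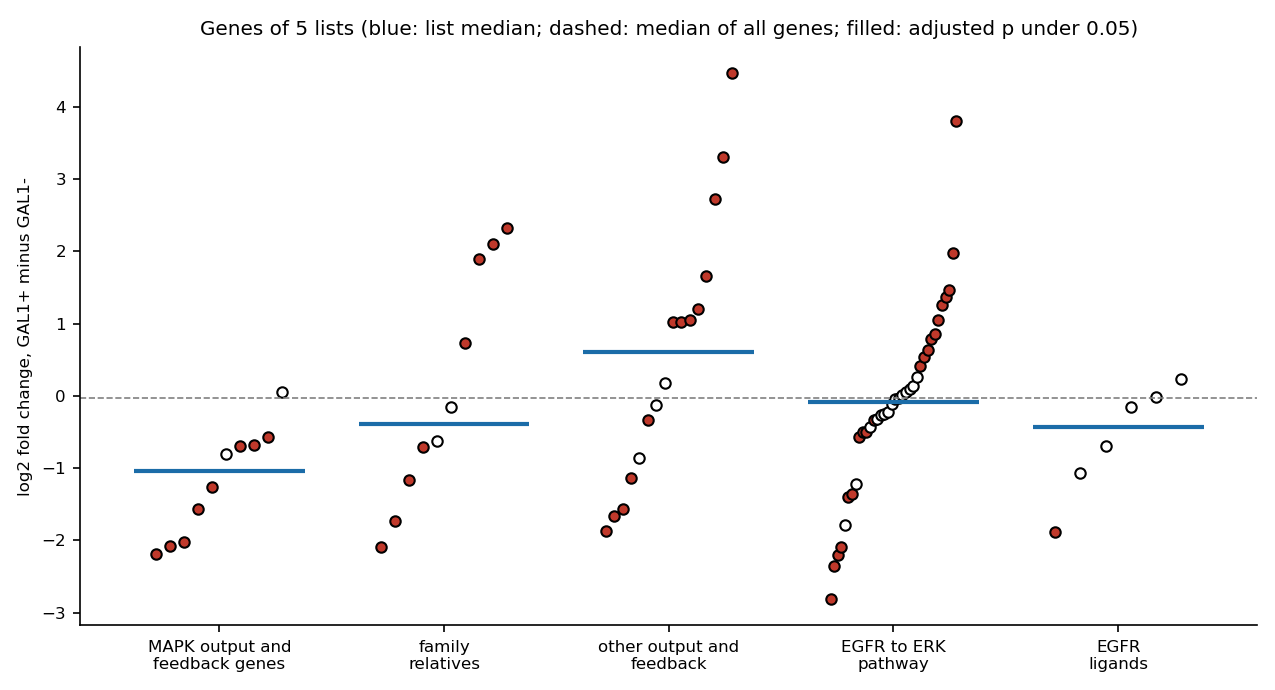
Log2 fold change from GAL1- to GAL1+ cells (y axis) of each gene in 5 lists, filled where the adjusted p was under 0.05, with the list median in blue and the median of all genes (-0.03) dashed. The median of the 10 output and feedback genes is at -1.04, that of other output genes at 0.60 and that of the pathway at -0.08.

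Markers of cell types also differed between the populations. All 12 leukocyte markers, 8 of 8 microglia, 7 of 7 macrophage, 8 of 8 endothelial and 6 of 6 mural markers were called higher in GAL1+ than in GAL1- cells, and 7 of 7 oligodendrocyte precursor, 6 of 6 oligodendrocyte, 3 of 6 astrocyte and 3 of 6 neuron markers were called lower. The summed CPM of the leukocyte list was 79.1 to 218 in GAL1-, 610 to 1406 in PDGFRA+, 671 to 2824 in PDGFRA- and 2631 to 3674 in GAL1+ cells. That of the precursor list was 5102 to 6291 in GAL1-, 4014 to 6048 in PDGFRA+, 1346 to 4329 in PDGFRA- and 623 to 1895 in GAL1+ cells. The precursor list includes Pdgfra, the gene of the PDGFRA sort, so it need not mark a cell type other than the EGFR+ cells. The oligodendrocyte list had another order, highest in PDGFRA- cells (837 to 1195). It was 451 to 724 in GAL1-, 339 to 431 in PDGFRA+ and 198 to 358 in GAL1+ cells. Ptprc, which encodes CD45, had 3.70 to 5.18 log2 CPM in GAL1- cells and 8.21 to 9.0 in GAL1+ cells, and no leukocyte, microglia or macrophage marker was under 3 reads in any library. The PDGFRA- library of T5 had the highest leukocyte sum of its population (2824, against 1081 in T3 and 671 in T4) and the lowest precursor sum (1346), and it was the lowest PDGFRA- library for 9 of the 10 genes, Dusp6 being highest there. The PDGFRA+ libraries had 12 of 12 leukocyte markers called higher than in GAL1- cells, where 8.26% of all genes were called higher. In that comparison 0 of the 10 genes differed by the test. All 10 differences were negative, and 0.011% of all genes were called lower. The sort markers themselves followed the labels on average, with Pdgfra at 10.30 ± 0.45 (SD, n = 3) in PDGFRA+ and 8.70 ± 1.38 (SD, n = 3) in PDGFRA- cells, and Lgals1 at 7.66 ± 0.27 (SD, n = 3) in GAL1+ and 6.38 ± 0.39 (SD, n = 3) in GAL1- cells. Pdgfra itself was not called between PDGFRA+ and PDGFRA- cells, where no gene was, and its mean was highest in GAL1- cells, at 10.55. Lgals1 did not overlap between the GAL1 populations, whereas the PDGFRA- library of T3 had 10.11 for Pdgfra, within the PDGFRA+ range of 9.95 to 10.81. The part of these cell type markers in the levels of the 10 genes was not tested.

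**Figure D5:**
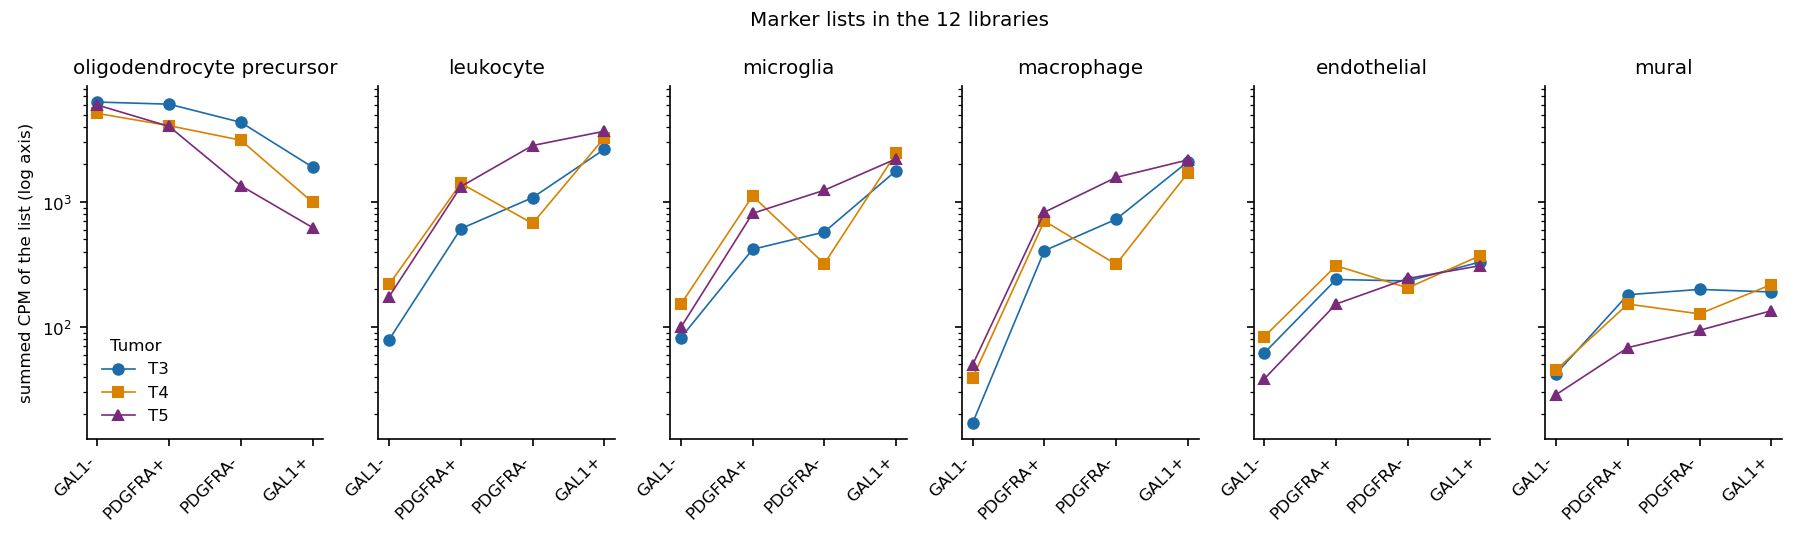
Summed CPM (log axis) of 6 marker lists in the 12 libraries, with the populations on the x axis and tumors as circles (T3), squares (T4) and triangles (T5). Oligodendrocyte precursor sums drop from GAL1- (5102 to 6291) to GAL1+ cells (623 to 1895), and leukocyte sums climb from 79.1 to 218 up to 2631 to 3674.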

How the data were processed

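Gene expression was measured by bulk RNAseq in 12 libraries, 4 sorted EGFR+ populations from each of 3 tumors, from 1 ng of total RNA with a stranded pico-input kit. The authors trimmed reads with fastp, aligned them with STAR to mm39, counted exons with featureCounts with multi-mapping reads as fractions, dropped genes unless 3 or more samples had a CPM above 1, and deposited log2 CPM values with TMM scaling and an offset of 0.5 reads. Reads were recovered here from the lowest value of each library, taken as 0 reads. Only 41.3% to 59.2% of them came out whole within 0.01, so the reported values come from no count model. In the reported fit, sampling error enters only through the spread between libraries. The alternatives with voom weights and with another offset did use these recovered reads and carry that limit.

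Differences were tested on the log2 values with limma 3.58.1 in R 4.3.3, in 1 model over 12 libraries with population and tumor as terms, a variance trend, a two-sided moderated test and Benjamini-Hochberg adjustment over 18180 genes, called under 0.05. The code was tested on simulated data. Tumor numbers come from the sample labels, and libraries of one tumor deviated together: over 18 pairs the correlation of deviations from population means was 0.14 to 0.66. The labels number the tumors without saying that each came from a separate mouse, and p-values measure only the spread between these samples. Alternatives covered the tumor block, the samples fitted, low-value filters, scaling, offset, voom weights, the variance prior, a fold minimum of 1.5, and leaving out each tumor or the PDGFRA- library of T5. The 10 genes and the other lists were chosen with earlier results of these data known. Named were all 10 genes, the 2 called genes that rose most and the 2 that fell most of each list between GAL1+ and GAL1-, Egfr, the 3 most similar genes to each of the 10 among those with a mean log2 CPM above 1, and defining markers. The EGFR ligand Epgn was not analysed here. Promoter sequence is from RefSeq, and exon lengths are from GENCODE M21, both on GRCm38, not the authors' build. The description of the tumor model is not complete, and what it leaves out is not reported here.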

Additional observations from a re-analysis of the deposited data

Results flagged for a closer look

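The effect of the Galectin-1 sort (GAL1+ minus GAL1-) differed from that of the PDGFRA sort (PDGFRA+ minus PDGFRA-) for 8 of the 10 genes by limma's test of the difference itself, with Benjamini-Hochberg adjustment over all genes. All 8 were on the negative side, where 24.9% of all genes were called, with 26.2% called on the positive side. The difference was -2.98 log2 units for Etv4 (adjusted p = 0.000431), -2.67 for Spry1 (adjusted p = 0.000487) and -2.54 for Spry2 (adjusted p = 0.000965), each in the same direction in 3 of 3 tumors. Spry4 had -1.86 (adjusted p = 0.000647), Etv5 -1.0 (adjusted p = 0.000984), Spred2 -0.90 (adjusted p = 0.0128) and Spred1 -0.80 (adjusted p = 0.00652), also in 3 of 3 tumors. Etv1 had -1.54 (adjusted p = 0.0465), negative in 2 of 3 tumors (-1.68 in T3 and -3.15 in T5, against 0.22 in T4). Its adjusted p was 0.0597 without the PDGFRA- library of T5, 0.219 without T3 and 0.242 without T5, in a range of 0.00763 to 0.242. Spred1 was not called without T3 (adjusted p = 0.0570), nor was Spred2 without T3 (0.150) or without T5 (0.0846). Spry1, Spry2, Spry4, Etv4 and Etv5 were called in all 13 alternatives. Dusp4 at -0.79 (adjusted p = 0.232) and Dusp6 at 0.58 (adjusted p = 0.0679) did not pass; without T4 Dusp4 had -1.54 (adjusted p = 0.0209), and without T3 Dusp6 had 0.95 (adjusted p = 0.0332). For all 8 the means were lower in GAL1+ than in GAL1- cells but higher in PDGFRA+ than in PDGFRA- cells. The test therefore adds both differences, and its size depends on GAL1+ being paired with PDGFRA+ as the positive cells. The causes of these differences were not tested.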

How the results depend on the processing

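The replicate block, here the tumor, changed several counts. Without it, genes called among the 10 went from 8 to 7 in GAL1+ minus GAL1-, from 6 to 2 in PDGFRA+ minus GAL1+, from 3 to 0 in PDGFRA- minus GAL1-, from 4 to 0 in PDGFRA- minus GAL1+ and from 8 to 5 in the difference between the sorts. Shares of all genes called in the same direction fell too. In the same order they went from 29.3% to 22.8%, 20.9% to 12.2%, 6.88% to 0.424%, 13.2% to 3.4% and 24.9% to 17.7%. PDGFRA+ minus PDGFRA- stayed at 0 in every alternative run, for the 10 and for all genes. Fitting only the populations compared called 3 in PDGFRA+ minus GAL1- (5.51% of all genes lower) and 0 in PDGFRA- minus GAL1- (0.677% lower). The latter had 5 with voom weights (9.8% of all genes lower), 7 with quantile normalization (13.8%) and 6 with median centring (12.7%). Leaving out a tumor, or the PDGFRA- library of T5, gave 6 to 9 in GAL1+ minus GAL1-, 4 to 8 in PDGFRA+ minus GAL1+, 0 to 3 in PDGFRA- minus GAL1-, 0 to 8 in PDGFRA- minus GAL1+ and 6 to 9 in the difference between the sorts. With these omissions, all genes called lower were 21.8% to 30.6% in GAL1+ minus GAL1- and 0.105% to 4.54% in PDGFRA- minus GAL1-. In the difference between the sorts they were 14.9% to 22.3%. There the 6 genes called without T3 were 5 lower and 1 higher, Dusp6, beside 16.9% of all genes called lower and 17.6% higher. All genes called higher were 9.97% to 23.0% in PDGFRA+ minus GAL1+ and 0% to 18.7% in PDGFRA- minus GAL1+. Some signs turned. Dusp6 in GAL1+ minus GAL1- had -0.087 with quantile normalization and -0.14 (without T5) to 0.21 with a tumor or library left out. With such omissions Dusp4 in PDGFRA+ minus PDGFRA- ran from -0.62 to 0.65 (without T4), Etv1 there from -0.34 (without T5, and -0.32 without the PDGFRA- library of T5) to 0.89, Dusp6 in PDGFRA+ minus GAL1- from -0.17 to 0.038 (without T4), Dusp4 in PDGFRA- minus GAL1- from -0.70 to 0.29 (without T5, and 0.27 without the PDGFRA- library of T5) and Spred2 in PDGFRA- minus GAL1+ from -0.024 (without T4) to 0.41. None of these had been called. Median centring moved the median of all genes by -0.16 in PDGFRA+ minus GAL1+ and by -0.14 in PDGFRA- minus GAL1+, and quantile normalization by -0.13 in each. Over the alternatives, genes called among all 18180 ran from 2110 to 7677 (6900 as reported) in PDGFRA+ minus GAL1+, from 0 to 3386 (1504) in PDGFRA+ minus GAL1-, from 920 to 5058 (4200) in PDGFRA- minus GAL1-, from 0 to 5837 (3652) in PDGFRA- minus GAL1+ and from 5757 to 9738 (9290) in the difference between the sorts. The cause was not tested. With 3 tumors, and 2 when one is left out, the spread behind each value is itself poorly known.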
